A study of Homo sapiens with 6 samples.

Results

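Genes of the YAP pathway and its targets were compared between an ADI-PEG20 resistant line and the parental line of Ju77, which is an established line from a human malignant mesothelioma. All array probes annotated to YAP1, WWTR1, TEAD1, LATS2, CCN2 (also CTGF), CCN1 (also CYR61), ANKRD1, AMOTL2 and AXL were taken, which gave 12 probes for these 9 genes of the 20044 named genes on the array. ADI-PEG20 is a pegylated arginine deiminase, a drug that depletes arginine outside the cell. RNA of 3 resistant samples and 3 parental samples was extracted 1 day after the cells were plated, then hybridised to Illumina expression arrays with 47225 probes. By the titles, each group is 1 line with repeats, so resistance and other ways in which the lines differ cannot be told apart, and the labels do not say whether the repeats were separate cultures or whether the drug was present at harvest. The p-values therefore rest on a spread among samples that may be only technical.

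YAP1 and its paralogue TAZ, encoded by WWTR1, are transcriptional coactivators that have no DNA-binding domain of their own and bind promoters and enhancers through the TEAD transcription factors. The Hippo kinase cascade, which ends in the kinases LATS1 and LATS2, phosphorylates YAP and TAZ and keeps them out of the nucleus. Mesothelioma is known for losing parts of this cascade, above all NF2, and CCN2, CCN1 and ANKRD1 are the genes most often used to read YAP activity. The genes lie on separate chromosomes for the most part, YAP1 and TEAD1 on chromosome 11, WWTR1 and AMOTL2 on 3, LATS2 on 13, CCN2 on 6, CCN1 on 1, ANKRD1 on 10 and AXL on 19. RNA levels do not report the phosphorylation or the location of YAP.

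The promoter sequences of these genes were searched for TEAD letters. Because the genes were chosen as pathway genes and known targets, the share of windows with a match is a description only. RefSeq promoter windows, which run from 250 bases before to 50 bases after a transcription start (GRCh38.p14), were at hand for 7 of the 9 genes, with 10 windows in all. The TEAD core letters CATTCC, searched on both strands (reverse complement GGAATG), were found in 6 of these 10 windows, against 14.0% of all 35116 windows. CCN2 held 3 copies, which 0.128% of all windows reached, and ANKRD1 held 2, which 1.37% of all windows reached or passed. YAP1, LATS2, 1 of 2 AMOTL2 windows and 1 of 2 AXL windows held 1 copy each, and both WWTR1 windows held none. The AP-1 letters TGANTCA were found in 1 member window, that of ANKRD1, against 7.71% of all windows, and did not overlap a TEAD match there. A match describes letters only and is not a bound site. The 250 bases before the start are printed for the 3 genes that differed between the lines (CCN2, YAP1 and AXL) and for ANKRD1, which has several matches but did not pass the test, 5′ to 3′ with the TEAD letters in capitals. They lie at chr6:131951373-131951622 on the minus strand, chr11:102110197-102110446 on the plus strand, chr19:41226505-41226754 on the plus strand and chr10:90921088-90921337 on the minus strand.
CCN2: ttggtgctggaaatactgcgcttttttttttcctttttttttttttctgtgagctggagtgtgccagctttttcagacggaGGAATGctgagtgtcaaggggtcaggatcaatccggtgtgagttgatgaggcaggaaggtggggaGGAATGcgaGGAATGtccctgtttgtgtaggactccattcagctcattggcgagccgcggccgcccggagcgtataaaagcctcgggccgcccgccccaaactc
YAP1: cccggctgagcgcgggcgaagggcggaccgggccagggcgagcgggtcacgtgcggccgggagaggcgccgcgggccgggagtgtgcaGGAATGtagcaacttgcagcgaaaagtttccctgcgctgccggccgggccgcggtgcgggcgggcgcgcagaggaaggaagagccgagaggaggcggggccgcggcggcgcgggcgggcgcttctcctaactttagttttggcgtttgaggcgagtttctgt
AXL: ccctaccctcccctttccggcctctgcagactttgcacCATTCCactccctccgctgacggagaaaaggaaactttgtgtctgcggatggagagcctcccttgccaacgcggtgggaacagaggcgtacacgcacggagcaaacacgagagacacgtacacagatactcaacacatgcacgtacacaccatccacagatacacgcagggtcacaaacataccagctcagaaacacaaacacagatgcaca
ANKRD1: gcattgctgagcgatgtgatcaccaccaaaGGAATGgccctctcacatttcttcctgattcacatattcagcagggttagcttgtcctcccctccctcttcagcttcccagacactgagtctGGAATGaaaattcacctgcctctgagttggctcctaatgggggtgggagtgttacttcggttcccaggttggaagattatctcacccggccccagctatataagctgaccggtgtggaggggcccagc
In the CCN2 window the copies began 169, 104 and 95 bases before the start, the last pair close together. Those of ANKRD1 began 220 and 128 bases before the start, and that of YAP1 162 bases before it. The AXL copy began 212 bases before the second of its 2 starts, the one printed. The window of the first AXL start (chr19:41218973-41219272) held none. The LATS2 copy lay after the start, beginning at base 10 of the transcript.

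**Figure D1:**
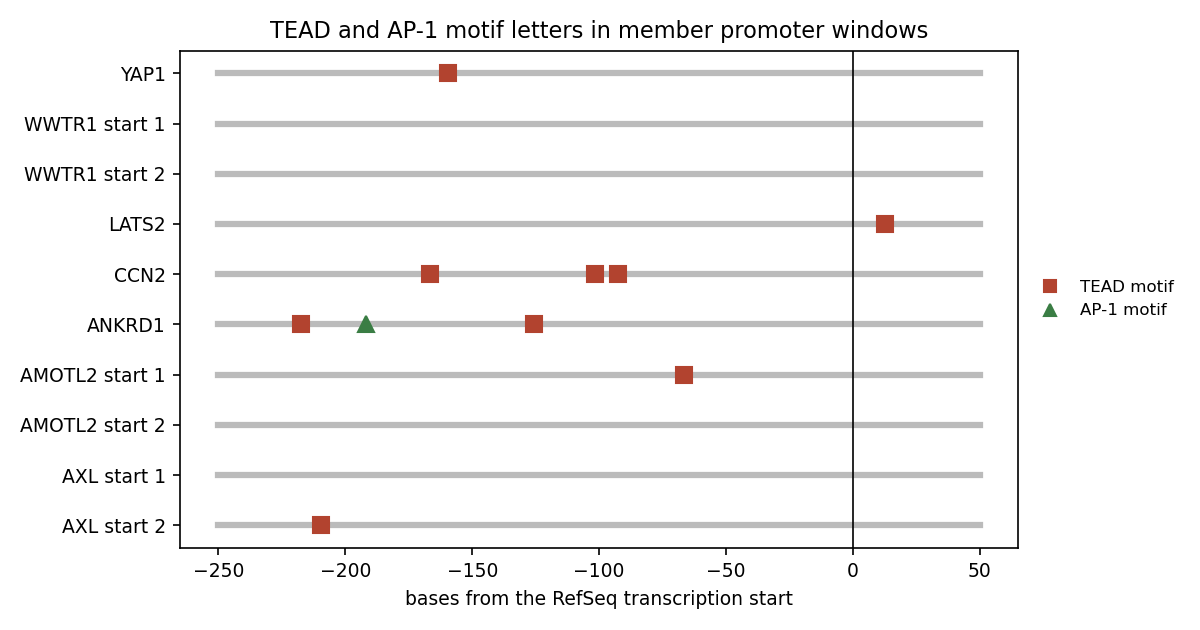
Positions of TEAD and AP-1 motif letters in the promoter windows of 7 genes, in bases from the RefSeq transcription start. Squares mark TEAD letters, the triangle the AP-1 letters, and grey bars the windows. CCN2 has 3 TEAD matches, ANKRD1 has 2, and WWTR1 has none.

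Between 19024 and 20113 probes per array were detected, with mean probe intensities of 415 to 454 on the resistant arrays and 470 to 499 on the parental arrays. Intensities given below as before normalisation still contain this gap. Its share in the lower raw values of WWTR1, CCN1 and AXL in resistant cells was not tested. Levels below are log2 intensities after background correction and quantile normalisation, and differences are resistant minus parental. Arrays correlated at 0.992 to 0.995 within a group and at 0.968 to 0.970 between groups over 17843 kept probes. Markers detected throughout a group numbered 5 in resistant cells and 6 in parental cells of 8 mesothelial ones. Of the 6 tested, CALB2 rose by 2.74, PDPN (detected on 1 of 3 resistant arrays), LRRN4 and BNC1 fell by 2.38, 0.79 and 0.61, and MSLN and WT1 did not pass, while KRT5 and UPK3B did not pass the detection filter. These values are of the brightest probes. A dimmer CALB2 probe rose by only 0.60. The other BNC1 probes gave -0.44, -0.55 and -0.22 (limma adjusted p = 0.103, 0.00419 and 0.184). The same counts were 0 and 0 of 6 for lung epithelium, 1 and 1 of 7 for leukocytes, 1 and 2 of 8 for fibroblasts and 0 and 1 of 6 for endothelium. The summed intensity of the fibroblast markers was 2730 to 2998 on the resistant arrays against 2079 to 2212 on the parental arrays, where MFAP5 rose by 3.06 and FBLN1, detected on no resistant array, was lower (limma adjusted p = 0.0168). The other 6, DCN, LUM, PDGFRA and THY1 among them, did not pass the detection filter, and any part of such cells in the results was not tested. Of all 10672 genes tested, 20.9% had a higher and 21.4% a lower level in resistant cells at an adjusted p under 0.05, or 42.3% in either direction.

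Of the 9 genes, all of which passed the detection filter, YAP1 and CCN2 rose, AXL fell and 6 did not pass the test, a share near the 20.9% higher and 21.4% lower (42.3% in all) of all genes. All 9 differed by 0.5 log2 units or less, as did 76.3% of all genes. The 9 genes differed about as much as genes in general: the median absolute log2 difference was 0.32 over the members and 0.27 over all genes tested, and the largest among the members was 0.49. The groups did not overlap for 5 of the 9 brightest probes, against 56.0% of all genes tested. The median signed difference was -0.12 over the members and -0.0040 over all genes.

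**Figure D2:**
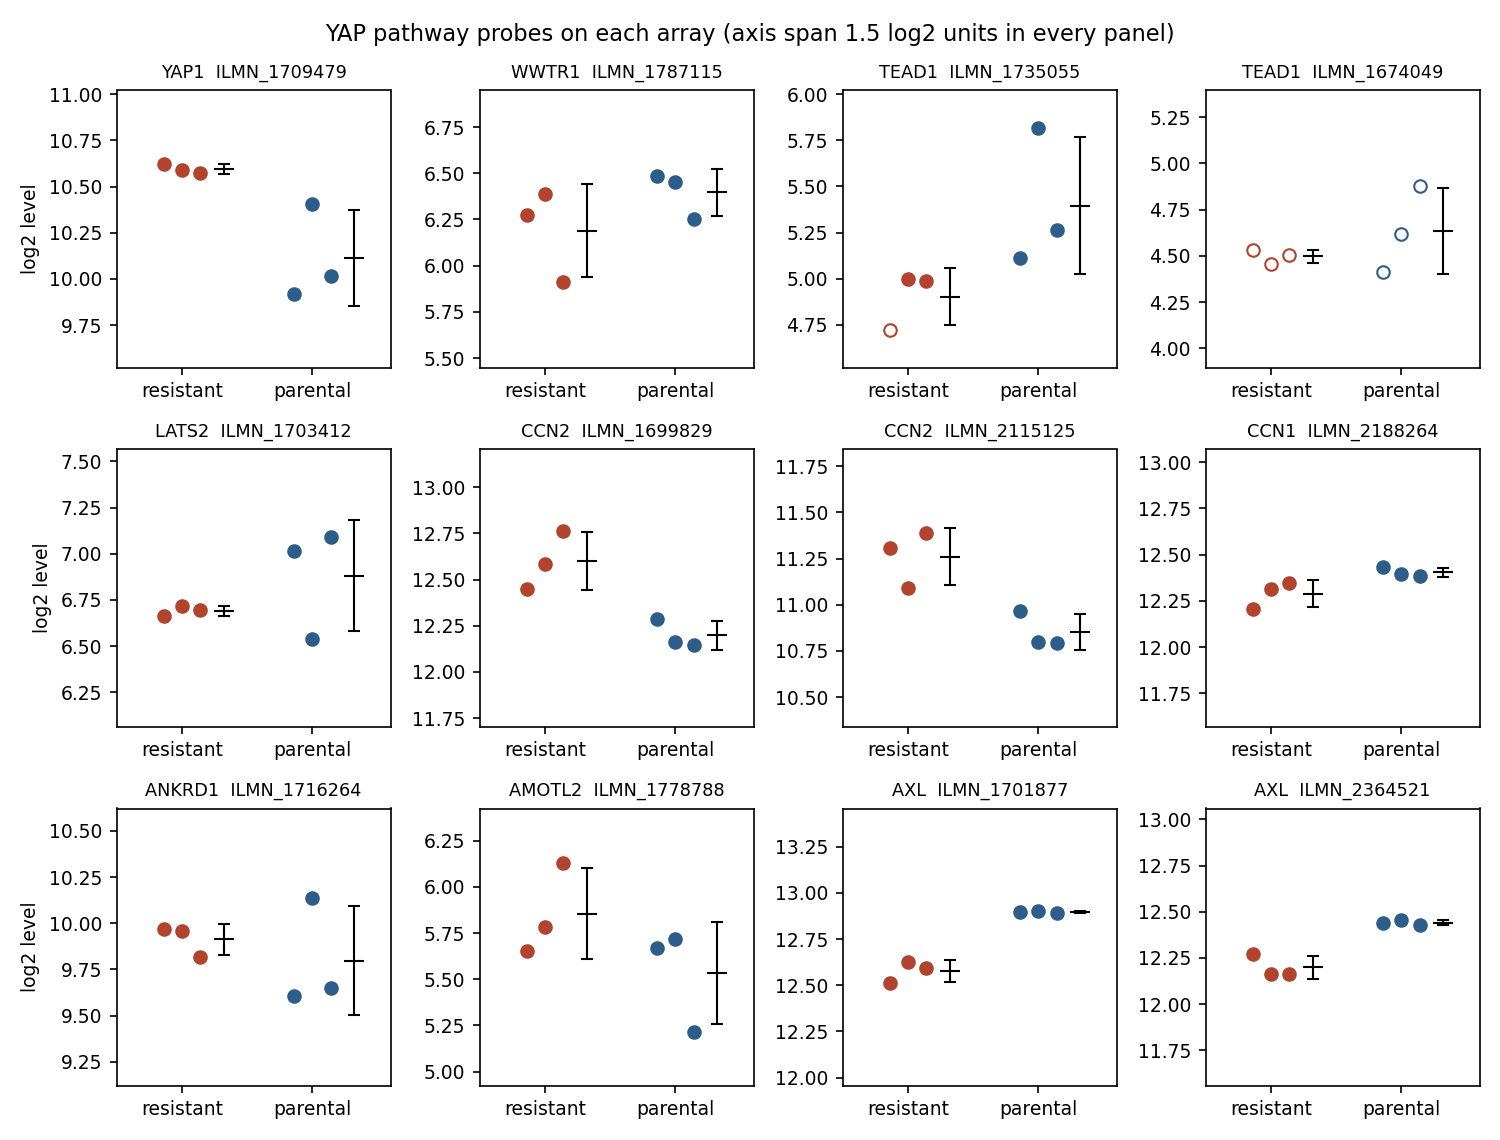
Log2 level of each of the 12 probes on each array, resistant arrays left and parental arrays right, with the group mean and SD (n = 3) in black. Every panel spans the same 1.5 log2 units. Filled points were detected at a p under 0.05 and open points were not. YAP1, CCN2, CCN1, AXL and the kept TEAD1 probe separate the groups, and the other probes overlap.

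YAP1, the coactivator at the centre of the pathway, was higher in the resistant cells. Its single probe (ILMN_1709479), detected on all arrays, read 10.62, 10.59 and 10.57 on the resistant arrays against 9.92, 10.41 and 10.02 on the parental arrays. The resistant values lay close together and above all parental values, among which the second array was high. The means were 10.59 ± 0.03 in resistant cells and 10.11 ± 0.26 in parental cells (SD, n = 3 each), a log2 difference of 0.48 (SE 0.13, 1.40-fold, limma adjusted p = 0.0214). Before normalisation the intensities overlapped, at 1634, 1427 and 1514 on the resistant arrays against 1152, 1509 and 1283 on the parental arrays. In a bulk extract, more cells with a transcript and more transcript per cell cannot be told apart. The call was lost when resistant array 1 or 2 or parental array 1 or 3 was left out (limma adjusted p = 0.0565, 0.0532, 0.0690 and 0.0697), without the detection filter (0.0568) and under median scaling (0.0765), with differences from 0.30 to 0.63 over all settings.

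WWTR1, which encodes the paralogue TAZ, did not follow YAP1. It read 6.27, 6.39 and 5.91 on the resistant arrays against 6.49, 6.45 and 6.25 on the parental arrays, and the groups overlapped. Before normalisation the intensities were apart, at 167 ± 13 in resistant cells and 194 ± 3 in parental cells (SD, n = 3 each). The log2 difference was -0.21 with a 95% interval from -0.52 to 0.11 (limma adjusted p = 0.269), and it was past the threshold in 0 of 18 other settings. The change of YAP1 minus that of WWTR1 was 0.69, given without a test because the pair was chosen after the values were seen, as were the pairs of CCN2 with CCN1 and with AXL.

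TEAD1, a DNA-binding partner of YAP and TAZ, was near the detection limit. Its kept probe (ILMN_1735055) read 4.72, 5.00 and 4.99 on the resistant arrays, detected on 2 of 3, against 5.11, 5.81 and 5.26 on the parental arrays, detected on all 3. All resistant values were below all parental values, but the difference of -0.49 (SE 0.18, 95% interval -0.91 to -0.07) did not pass the threshold (limma adjusted p = 0.0639). Without background correction it was -0.13 (limma adjusted p = 0.111), and leaving out parental array 1 took it past the threshold (-0.63, limma adjusted p = 0.0368), as did median scaling (0.0343), whereas without parental array 2, the highest, it was -0.28 (limma adjusted p = 0.119). A further TEAD1 probe (ILMN_1674049) was detected on no array.

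LATS2, the kinase that phosphorylates YAP and is itself a YAP target, had overlapping groups. It read 6.66, 6.72 and 6.69 on the resistant arrays against 7.01, 6.54 and 7.09 on the parental arrays. The resistant values lay between the parental ones, and parental array 2 was the lowest of all 6. The log2 difference was -0.19 with an interval from -0.52 to 0.15 (limma adjusted p = 0.333). Without parental array 2 it was -0.36 (limma adjusted p = 0.0231).

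Of the targets given next, CCN2 rose, AXL fell, and CCN1, ANKRD1 and AMOTL2 did not pass the threshold. The intervals of ANKRD1 (-0.22 to 0.46) and AMOTL2 (-0.07 to 0.71) include the CCN2 difference of 0.40. CCN2, the connective tissue growth factor, is a secreted matricellular protein and the target most often used as a readout. Its brighter probe (ILMN_1699829) read 12.45, 12.59 and 12.76 on the resistant arrays against 12.29, 12.16 and 12.14 on the parental arrays. Its other probe (ILMN_2115125) read 11.31, 11.09 and 11.39 on the resistant arrays against 10.97, 10.80 and 10.79 on the parental arrays. Both probes separated the groups, with log2 differences of 0.40 (SE 0.10, 1.32-fold, limma adjusted p = 0.0178) and 0.41 (SE 0.11, 1.33-fold, limma adjusted p = 0.0180). The call of the brighter probe was lost without resistant array 3 (limma adjusted p = 0.0515), without parental array 3 (0.0598) and under median scaling (0.0721). That of the other probe was lost under the same settings (0.0555, 0.0606 and 0.201) and without parental array 2 (0.0538). The intensities before normalisation were apart for the brighter probe, at 5929 ± 500 in resistant cells and 5182 ± 202 in parental cells (SD, n = 3 each), and overlapped for the other.

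CCN1, also called CYR61, is the closest relative of CCN2 among the targets and is likewise secreted. It read 12.21, 12.31 and 12.35 on the resistant arrays against 12.43, 12.40 and 12.39 on the parental arrays. The resistant values were all lower, by a small margin, and the log2 difference of -0.12 (SE 0.08, 95% interval -0.30 to 0.07) did not pass the threshold (limma adjusted p = 0.290). Median scaling took it past the threshold (-0.26, limma adjusted p = 0.0420). Before normalisation the intensities were apart, at 4773 ± 150 in resistant cells and 5918 ± 206 in parental cells (SD, n = 3 each). The change of CCN2 minus that of CCN1 was 0.52.

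ANKRD1, an ankyrin repeat protein of muscle and stressed cells, gave no difference past the threshold. It read 9.97, 9.96 and 9.82 on the resistant arrays against 9.60, 10.14 and 9.65 on the parental arrays. The resistant values lay within the parental range, and parental array 2 was the highest, as it was among the parental arrays for YAP1. The log2 difference was 0.12 with an interval from -0.22 to 0.46 (limma adjusted p = 0.565), and -0.084 under median scaling. With 1 array left out it ranged from 0.018 without parental array 1 to 0.29 without parental array 2 (limma adjusted p = 0.0616). Mean intensities before normalisation went the other way, at 985 in resistant cells and 1091 in parental cells, and the groups overlapped.

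AMOTL2, an angiomotin-like protein that holds YAP in the cytoplasm and is induced by it, was dim. It read 5.65, 5.78 and 6.13 on the resistant arrays against 5.67, 5.72 and 5.22 on the parental arrays, detected on all of them. The groups overlapped, and the log2 difference of 0.32 (95% interval -0.07 to 0.71) did not pass the threshold (limma adjusted p = 0.172). Without background correction it was 0.099. The intensities before normalisation did not differ on average, at 153.0 in resistant cells and 153.3 in parental cells.

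AXL, a receptor tyrosine kinase of the TAM family and a YAP target, fell. Its brighter probe (ILMN_1701877) read 12.51, 12.63 and 12.59 on the resistant arrays against 12.90, 12.90 and 12.89 on the parental arrays. Its other probe (ILMN_2364521) read 12.27, 12.17 and 12.16 on the resistant arrays against 12.44, 12.46 and 12.43 on the parental arrays. Every resistant value was below every parental value on both probes, also in the intensities before normalisation, which averaged 5855 ± 108 in resistant cells and 8132 ± 327 in parental cells for the brighter probe (SD, n = 3 each). The log2 differences were -0.32 (SE 0.08, 1.25-fold, limma adjusted p = 0.0146) and -0.24 (SE 0.08, 1.18-fold, limma adjusted p = 0.0429). The brighter probe kept its call in all 18 other settings, and the other probe lost it in 8 of 17, among them each array left out in turn except resistant array 1 (highest limma adjusted p = 0.118). The change of CCN2 minus that of AXL was 0.72.

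**Figure D3:**
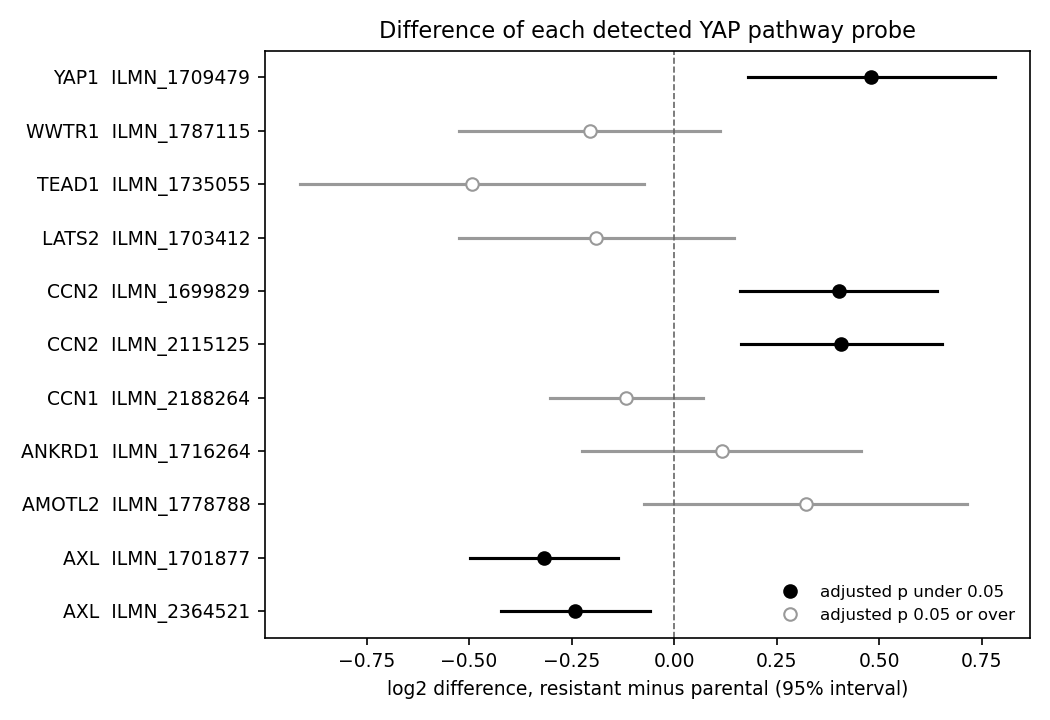
Log2 difference, resistant minus parental, of each of the 11 kept probes with its 95% interval. Black marks an adjusted p under 0.05 and grey one at or over it. YAP1 and both CCN2 probes lie above 0, both AXL probes below it, and the intervals of WWTR1, LATS2, CCN1, ANKRD1 and AMOTL2 span 0. The TEAD1 interval lies below 0, but its adjusted p is over 0.05.

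Other parts of the pathway were described from lists around the 9 genes, each to be read against the 20.9% higher and 21.4% lower of all genes tested. Of 7 TEAD family members and cofactors 5 were tested, of which 3 rose and 1 fell (median 0.53). TEAD2 averaged 10.39 ± 0.04 in resistant cells and 9.79 ± 0.09 in parental cells (SD, n = 3 each), a log2 difference of 0.60 (limma adjusted p = 0.00125). TEAD4 averaged 8.53 ± 0.27 in resistant cells and 9.33 ± 0.13 in parental cells (SD, n = 3 each), a log2 difference of -0.80 (limma adjusted p = 0.00377), and its other probe gave -0.58. TEAD3 gave 0.053 and did not pass the threshold. The vestigial-like proteins bind TEADs in competition with YAP. VGLL3, detected on 2 of 3 parental arrays, rose by 1.13 (limma adjusted p = 2.18e-04, and 0.34 without background correction), and VGLL4, a repressor of TEAD, rose by 0.53 (limma adjusted p = 0.00358). VGLL1 and VGLL2 did not pass the detection filter.

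The Hippo kinases, adaptors and YAP inhibitors went both ways. Of 21 genes 16 were tested, of which 5 rose, 3 fell and 8 did not pass (median -0.013), near the 42.3% of all genes called in either direction. STK3 (MST2), a kinase at the head of the cascade, rose by 0.79 (limma adjusted p = 3.33e-04), MAP4K4, a kinase that can act beside it, rose by 0.71, and FRMD6, an adaptor upstream of the kinases, rose by 0.65. AJUBA, a LIM protein that holds LATS kinases back, fell by 0.63. STK4, the paralogue of STK3, went the other way from STK3, with a log2 difference of -0.26 (limma adjusted p = 0.0486). That call was lost in 9 of 18 other settings. NF2, singled out after its value was seen because mesothelioma often loses it, was detected on all arrays and averaged 5.46 ± 0.40 in resistant cells and 5.36 ± 0.09 in parental cells (SD, n = 3 each), with an interval of the log2 difference from -0.32 to 0.53 (limma adjusted p = 0.689). This NF2 probe was dim, and the other NF2 probe (5.15 in resistant and 5.07 in parental cells) was detected on 2 of 3 parental arrays. LATS1 did not pass the filter. In this list 3 were higher without resistant array 3, parental array 2 or parental array 3, and under median scaling, and 1 was lower without resistant array 2 or parental array 3. Leaving out 1 array also lowered the share of all genes called, to between 32.9% and 38.0%.

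A list of 16 further YAP targets, all tested, held larger single changes than any of the 9 genes but no shared direction. The list was chosen with earlier results of these data known, so the size of its changes is a description only. Of these 7 were higher and 5 lower (median 0.052), against 20.9% and 21.4% of all genes. TGFB2, the ligand transforming growth factor beta 2, averaged 8.56 ± 0.05 in resistant cells and 6.33 ± 0.26 in parental cells (SD, n = 3 each), a log2 difference of 2.23 (limma adjusted p = 1.96e-05). NT5E (CD73), the surface enzyme that makes adenosine from AMP, averaged 5.93 ± 0.22 in resistant cells and 8.54 ± 0.19 in parental cells (SD, n = 3 each), a log2 difference of -2.60 (limma adjusted p = 1.32e-05). Without background correction these differences were 1.32 and -1.46. DOCK5, an exchange factor for Rac, fell by 1.22, and GADD45A, a growth arrest gene, rose by 0.69. Under median scaling 2 of the list were higher.

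Relatives of CCN2, CCN1 and AXL were set beside them. CCN3 (NOV), a secreted CCN protein, was the only other member of its family that passed the filter, and averaged 8.90 ± 0.15 in resistant cells and 5.87 ± 0.17 in parental cells (SD, n = 3 each), a log2 difference of 3.03 (limma adjusted p = 3.08e-06, and 1.76 without background correction). Of the TAM receptors and their ligands, PROS1, a ligand, rose by 0.51 (limma adjusted p = 0.00195). The receptors TYRO3 and MERTK and the AXL ligand GAS6 did not pass, with differences of -0.071, -0.27 and 0.23. Another MERTK probe, detected on all arrays, had the opposite sign (0.10). AP-1, which often binds beside TEAD, showed 2 of 6 tested subunits higher and 2 lower, against 20.9% and 21.4% of all genes. JUN rose by 0.53 and JUNB, detected on 1 of 3 parental arrays, by 0.67 (0.18 without background correction), whereas FOSL1 fell by 0.59 and FOSB, detected on no resistant array, was at least 1.46-fold lower on the background-corrected scale (limma adjusted p = 0.00842), with a log2 difference of -0.22 without that correction. The genes named in these lists kept their call and direction in every setting that gave a value, except STK4 and those stated as not past the threshold.

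**Figure D4:**
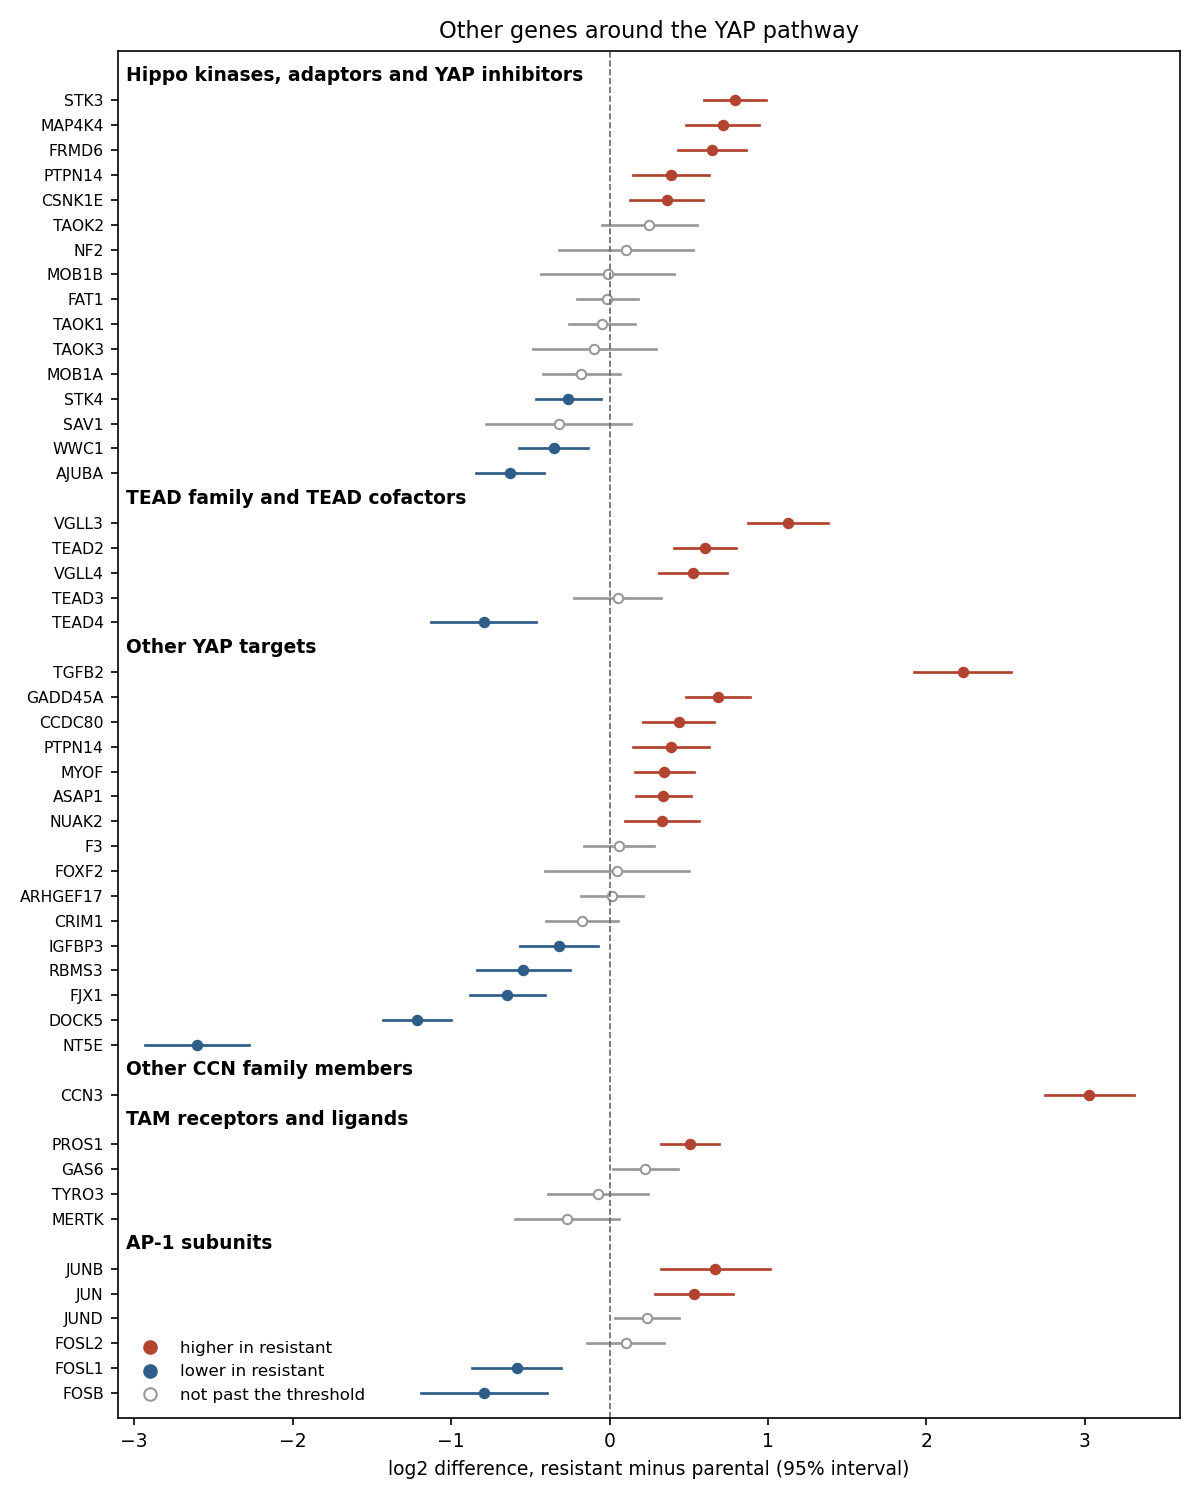
Log2 difference, resistant minus parental, with its 95% interval for the tested genes of 6 lists around the pathway. Red genes were higher, blue genes lower and open grey genes not past the threshold. CCN3 and TGFB2 lie farthest above 0 and NT5E farthest below, and PTPN14 stands in 2 lists.

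The genes whose pattern over the 6 arrays was most like that of CCN2 were RHBDF2, PACS2, NCOA7, UPK3BL1 and LRRC3DN, with Pearson correlations of 0.997, 0.997, 0.993, 0.992 and 0.992. Among the members the correlation with CCN2 was 0.68 for YAP1, 0.81 for AMOTL2, 0.096 for ANKRD1, -0.45 for CCN1, -0.82 for AXL, -0.66 for WWTR1, -0.64 for TEAD1 and -0.36 for LATS2. The 6 arrays fall into the lines compared here, so these values describe mainly the group difference and carry no test.

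**Figure D5:**
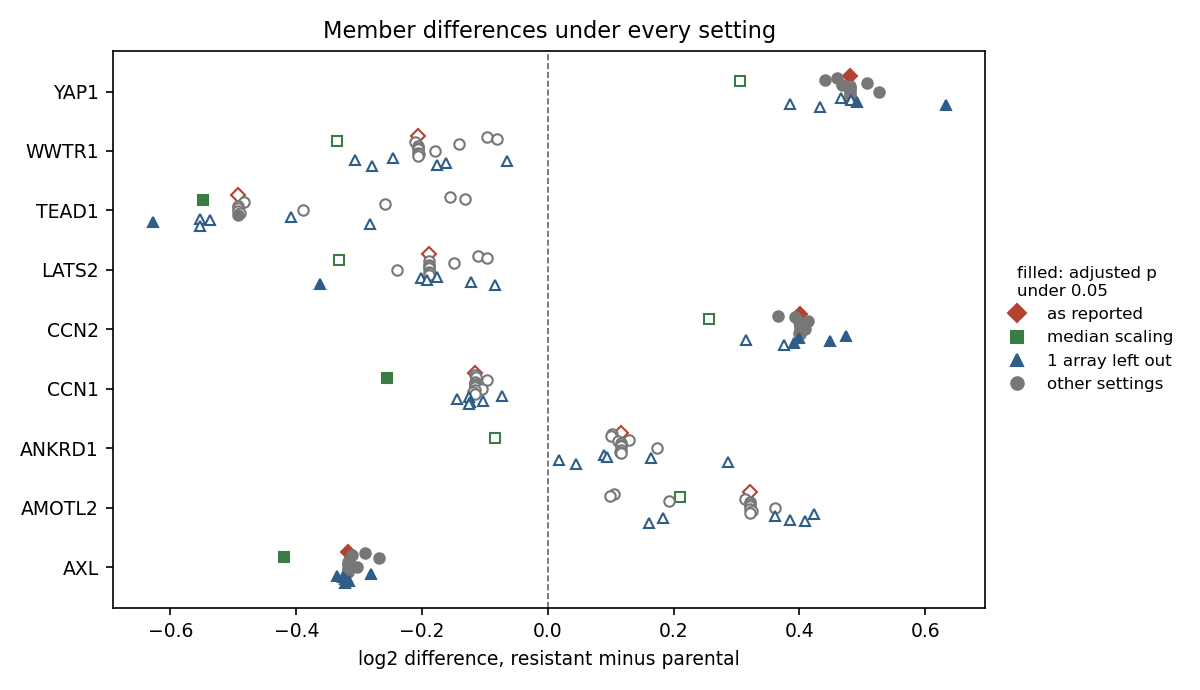
Log2 difference, resistant minus parental, of the brightest probe of each gene as reported and under each other setting. Filled symbols had an adjusted p under 0.05. AXL stays below 0 and filled throughout, YAP1 and CCN2 stay above 0 but turn open in several settings, and ANKRD1 crosses 0 under median scaling.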

How the data were processed

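Total RNA of 3 resistant and 3 parental Ju77 samples was labelled with biotin and hybridised to Illumina arrays, per the labels' protocols. The deposited intensity table gives an average signal and a detection p-value per probe, with no normalisation named. The authors' deposited log2 values of the same arrays were used as an alternative, with a method not given in the sources used here. Among the probes 3269 rows, none of a member probe, had the intensity and detection columns exchanged, with the intensity as a natural log in the deposited file, and they were restored (rank correlation with the deposited log2 values 1 on each array).

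Intensities were corrected and normalised with neqc (offset 16) in limma 3.58.1 (R 4.3.3). The 17843 probes kept were those with a detection p under 0.05 on every array of 1 group or both. Groups were compared with lmFit and eBayes without a covariate, two-sided, with Benjamini-Hochberg adjustment over all kept probes at 0.05. A gene was counted by its brightest kept probe. Symbols are those of the platform's annotation, brought up to GRCh38.p14 (99.9% of named probes matched), and no array coordinates are given. For a gene undetected throughout its dimmer group a bound is given, the brighter group's mean against the higher of each dimmer array's lowest detected signal and its own. The number of arrays limits the precision.

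Members and lists were chosen with earlier results of these data known. Named were all members, up to 4 called genes per list with the largest change, any gene of a list with 5 or fewer called, and the 5 genes most correlated with CCN2. STK4 was named outside this rule, beside its paralogue STK3. Alternatives covered correction, scaling, offset, filter, variance model, 1 probe a gene, restored rows, pairing and each array left out. Replicate numbers were not used as pairs in the reported fit, because the labels do not say that they mark a shared culture. The functions were tested on simulated data in which few probes changed. There 10 of 64 changes of 1.5-fold, 36 of 66 of 2-fold and 51 of 62 of 4-fold were recovered. In the data 42.3% of genes were called, so these rates do not give the share of member changes that would be found. Every member differed by less than 1.5-fold, and a member that did not pass the threshold may still differ.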

Additional observations from a re-analysis of the deposited data

How the results depend on the processing

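Of the 11 kept member probes 3 kept their direction and side of the threshold in every one of 18 other settings that gave a value, those of WWTR1 and AMOTL2, not past the threshold, and the brighter AXL probe, which was. Median scaling shifted the median of all genes by -0.15 and gave 0 members higher and 3 lower, against 2 and 1 in the reported fit. Relative to that shift YAP1 differed by 0.46, CCN2 by 0.41 and ANKRD1, whose sign turned (-0.084), by 0.068. Over all genes it gave 1351 higher and 3539 lower, against 2231 and 2285, with 3 higher Hippo genes and 2 higher further targets. Without the detection filter 1 member was higher, as were 3 Hippo genes and 2 CCN genes, and 1 Hippo gene was lower. Calls over all genes fell there too, to 3496 (17.4% of the genes then in the fit) from 4516 (42.3%) in the reported fit. A detection p under 0.01 left 1 AP-1 subunit higher and 1 lower. The TAM list had 2 higher with the deposited log2 values, without background correction, with an offset of 50 and with the intensity trend. With 1 array left out, members called higher ranged from 0 (without parental array 3) to 2 and lower from 1 to 2, Hippo genes higher from 3 to 5 and lower from 1 to 2, and TAM genes lower from 0 to 1 (without resistant array 3). In these fits 32.9% to 38.0% of all genes were called in either direction, also fewer than in the reported fit. Deviations of same-numbered arrays correlated at -0.0619, 0.0148 and 0.0626, which cannot tell whether these arrays shared a culture. With the replicate block 2 members were lower, TEAD1 having passed the threshold (limma adjusted p = 0.0308). Of 29 called list genes 20 kept call and direction throughout. Dim probes (TEAD1, AMOTL2, WWTR1) lie near the background, which limits the size of their differences. The cause of these shifts was not tested.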
